A study of Mus musculus with 11 samples.

Results

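The genes described here are 10 immediate early genes, found among the 52636 genes of the deposited tables by the Ensembl identifiers of their symbols in GRCm38: the AP-1 subunits Fos, Fosb, Jun and Junb, the partner factor Atf3, the zinc finger factors Egr1, Egr2, Klf6 and Klf2, and Ier3. They were measured by RNA sequencing of 11 untreated mouse fetal livers at E15.5. These came from 3 WT embryos, 2 Tnfr1-/- embryos (labelled TNFR1KO), 3 Casp8-/- Mlkl-/- embryos (labelled Casp8 MLKL dKO) and 3 Casp8-/- Tnfr1-/- embryos (labelled Casp8 TNFR1 dKO), all on a C57BL/6N background. The deletions are carried by the whole embryo, so a change in the liver need not start in a liver cell. Caspase-8 restrains necroptosis, a lytic death carried out by MLKL, and TNFR1 is a receptor for TNF, so both double knockouts lack caspase-8 and differ in which partner gene is also missing.

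Immediate early genes are transcribed within minutes of a signal because their promoters are occupied by factors, such as SRF and CREB, that MAP kinases activate without new protein synthesis. FOS and JUN proteins pair through leucine zippers to form AP-1, which binds DNA and drives later genes such as proteases and cytokines, and EGR and KLF proteins bind GC-rich DNA through zinc fingers. The same genes respond to growth factors, cytokines, low oxygen and tissue dissociation, so in liver they are known both as early genes of regeneration and inflammation and as genes that move with the handling of a sample.

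Level here means CPM, the reads of a gene scaled to one library total with edgeR's TMM factors. Called means an edgeR quasi-likelihood p below 0.05 after Benjamini-Hochberg adjustment over all 17243 genes tested. Each library held 23129212 to 35819339 counted reads. Casp8-/- Tnfr1-/- replicate 3 stood apart: its TMM factor was 0.758, its log2 CPM correlated with those of the other livers at r = 0.840 to 0.891 across genes, and it was the only liver with Xist at a high level and Y-linked genes at or near 0 CPM. Casp8-/- Mlkl-/- replicate 1 had the other TMM factor under 1, 0.812. Casp8 averaged 30.6 CPM in WT and 32.2 CPM in Tnfr1-/- livers. It averaged 9.08 CPM in Casp8-/- Mlkl-/- livers and measured 13.1, 11.5 and 21.9 CPM in Casp8-/- Tnfr1-/- livers. Reads on Tnfrsf1a, the gene of TNFR1, were about as many in Tnfr1-/- livers (mean 50.1 CPM) as in WT livers (mean 51.1 CPM). Counts over whole genes therefore do not check the Tnfr1-/- genotype. Each result below is given with and without replicate 3. The labels name neither litters nor dissection days, so p-values measure the spread between these livers.

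All 10 genes were highest in Casp8-/- Tnfr1-/- replicate 3. Of all genes tested, 32.3% were highest in that liver. In 4 of the 10, Fos, Atf3, Egr2 and Klf6, the other 2 Casp8-/- Tnfr1-/- livers were also above all 8 livers of the other genotypes, which holds for 7.43% of all genes tested. Against WT livers Fos (27.2-fold) and Atf3 (22.8-fold) were called higher, where 5.1% of all genes tested were called higher and 0.702% lower. Egr2 (33.8-fold) was called too, but it and Fosb passed the filter on low counts only through the Casp8-/- Tnfr1-/- livers. The call of Egr2, and its place among the 4, thus describe where it was detected. Without replicate 3 the folds of Fos, Atf3 and Egr2 were 3.32, 6.67 and 16.8, and all 3 were called again. Levels of a gene in whole liver do not separate more cells of a type from more RNA per cell.

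**Figure D1:**
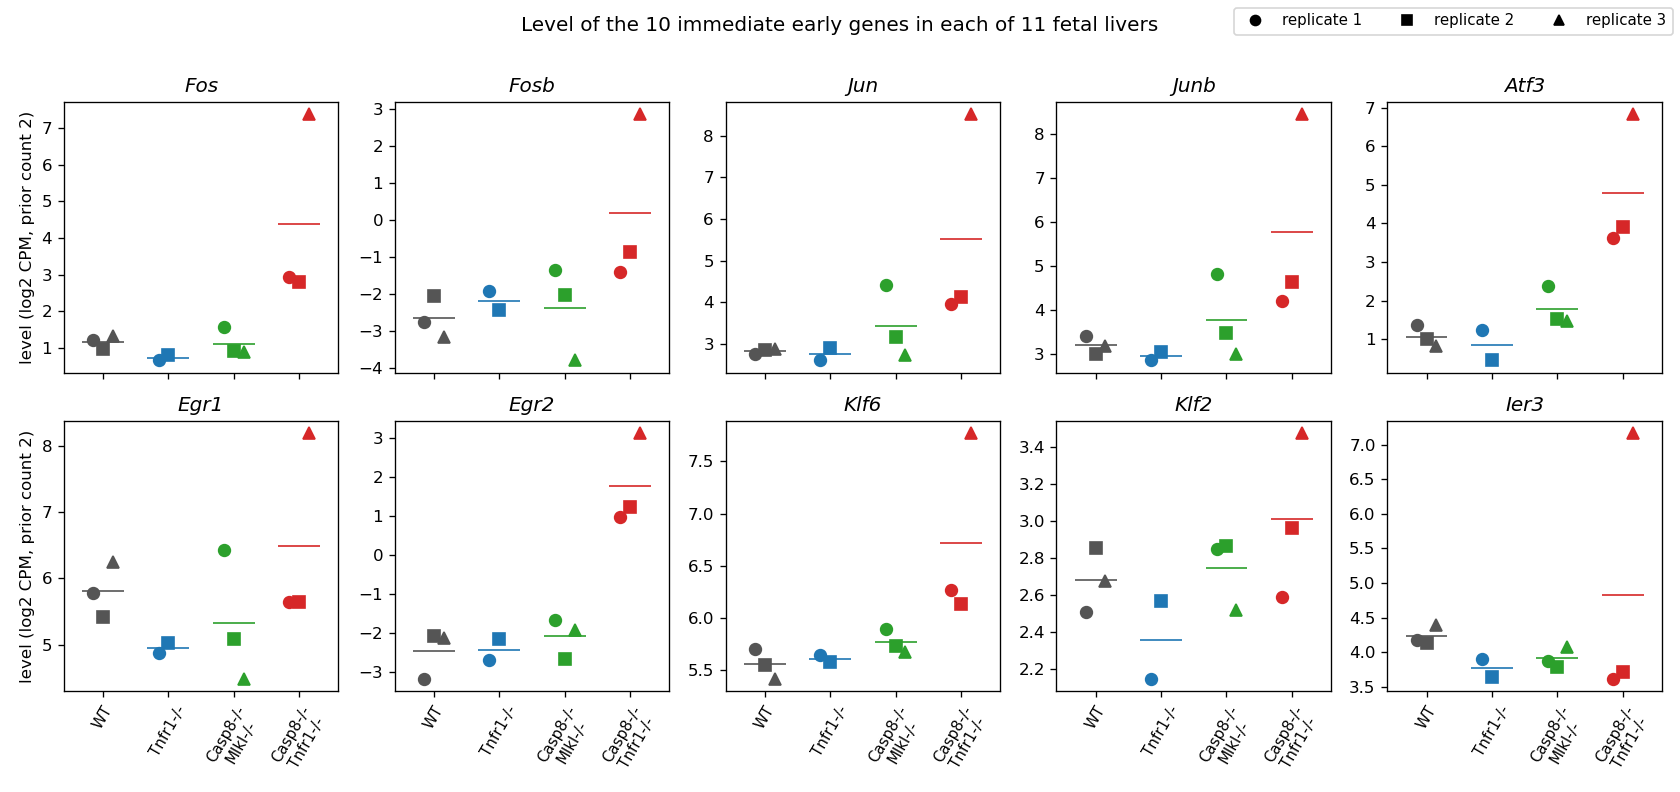
Level of each gene (vertical axis, log2 CPM with a prior count of 2) in each of the 11 livers by genotype, with 1 point per liver, a shape for each replicate number and a bar at the mean of the log2 values. Replicate 3 of the Casp8-/- Tnfr1-/- livers (red triangle) is the highest point in all 10 panels, and the other 2 red points clear all 8 other livers in 4 of them, Fos, Atf3, Egr2 and Klf6.

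The promoter sequences are shown for the 3 genes called against WT livers, because the signal-ready promoter is what defines an immediate early gene. RefSeq's table for GRCm38.p6 held windows for 9 of the 10 genes, Egr1 not among them, and the 250 bases before each start were searched on both strands. Capitals mark matches of TGACGT (the core shared by CREB and ATF sites, and the first bases of the full site TGACGTCA), of the TATA box letters TATAAA, of the SRF site known as the CArG box and of the NF-kB site. Fos is shown for chr12:85473640-85473889 on the plus strand and Atf3 for chr1:191183334-191183583 on the minus strand, before a start inside the gene's annotated span.
Fos: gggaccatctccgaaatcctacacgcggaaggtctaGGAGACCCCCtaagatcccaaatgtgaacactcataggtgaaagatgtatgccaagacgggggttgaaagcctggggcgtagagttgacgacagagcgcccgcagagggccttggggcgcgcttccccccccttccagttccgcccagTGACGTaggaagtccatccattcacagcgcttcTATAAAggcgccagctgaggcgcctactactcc
Atf3: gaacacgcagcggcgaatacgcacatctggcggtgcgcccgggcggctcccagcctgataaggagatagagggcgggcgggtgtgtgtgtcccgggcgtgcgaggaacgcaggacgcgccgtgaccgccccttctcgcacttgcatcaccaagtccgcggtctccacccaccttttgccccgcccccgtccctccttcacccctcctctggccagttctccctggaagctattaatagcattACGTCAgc
In Fos the core lies 66 to 61 bases before the start, the TATA box at 33 to 28 and an NF-kB match at 214 to 205. In Atf3 the core lies on the opposite strand 8 to 3 bases before the start. Egr2 has 5 annotated starts, and 3 of its windows, which overlap, hold the same pair of sites, of which the 30 bases at chr10:67537793-67537822 (plus strand, from 76 bases before the third start) are shown.
Egr2: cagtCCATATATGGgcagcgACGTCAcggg
There the CArG box is followed by a core on the opposite strand. TGACGT was thus found in Fos, Atf3 and Egr2 and in none of the other 6 genes with a window, while 6.47% of all 32851 windows of the same length hold it. This core was added to the search after the windows had been seen, so its presence in these 3 genes is no test of a link with the calls. The share is also per window, whereas Egr2 had 5 windows searched. A CArG box was found in Egr2 (1.47% of all windows), an NF-kB match in Fos, Fosb and Ier3 (3.9%) and TATAAA in Fos (12.4%). The AP-1 site TGACTCA (4.46% of all windows), the full site TGACGTCA (1.55%) and the EGR site GCGTGGGCG (0.536%) were in none of the 9. A match describes letters in this window and is no measure of binding.

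The resting order of the genes was read in WT livers as CPM per kilobase of exon, since only levels per length compare between genes. Ier3 measured 15.49 to 18.4 CPM per kilobase, Egr1 9.51 to 16.9 and Klf6 10.1 to 12.3, and these neighbours overlapped. Junb followed at 4.38 to 5.77 CPM per kilobase, Klf2 at 3.04 to 3.88 and Jun at 2.10 to 2.26, with no overlap between neighbours. Fos, at 0.895 to 1.16 CPM per kilobase, and Atf3, at 0.787 to 1.16, overlapped. Egr2 and Fosb were near the floor of detection, at no more than 0.053 and 0.044 CPM per kilobase. In Casp8-/- Tnfr1-/- replicate 3 the order was another one, led by Junb at 192 CPM per kilobase, Ier3 at 127 and Jun at 115.

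Fos (ENSMUSG00000021250, chromosome 12, 85473890 to 85477273, plus strand) encodes the founding FOS subunit of AP-1, an unstable protein whose gene is the standard early reporter of MAP kinase and SRF signaling. WT livers measured 2.23, 1.89 and 2.45 CPM, Tnfr1-/- livers 1.504 and 1.67 CPM, and Casp8-/- Mlkl-/- livers 2.88, 1.80 and 1.76 CPM. Casp8-/- Tnfr1-/- livers measured 7.60, 6.88 and 165 CPM. The lowest of these was 2.39 times the highest of the 8 other livers, so the groups did not overlap, and replicate 3 was 21.7 and 24.0 times replicates 1 and 2 of its own genotype. The log2 fold change was 4.77 ± 1.15 (SE) against WT livers (edgeR adjusted p = 0.0411), 5.23 ± 1.41 against Tnfr1-/- livers (0.102) and 4.80 ± 1.15 against Casp8-/- Mlkl-/- livers (0.0787). Only the first was called. Without replicate 3 the values were smaller and their errors smaller still, 1.73 ± 0.24, 2.19 ± 0.28 and 1.76 ± 0.24, and each was called (adjusted p = 0.0025, 0.0023 and 0.0045).

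Fosb (ENSMUSG00000003545, chromosome 7, 19302696 to 19310051, minus strand) encodes a second FOS protein, usually far less abundant at rest. Its counts were 0 to 8 reads in the 8 other livers and 10, 14 and 126 reads in Casp8-/- Tnfr1-/- livers, so it passed the filter on low counts only through the latter. Levels were 0.077, 0.168 and 0.039 CPM in WT livers, 0.191 and 0.114 in Tnfr1-/- livers, 0.324, 0.174 and 0 in Casp8-/- Mlkl-/- livers, and 0.305, 0.482 and 7.18 in Casp8-/- Tnfr1-/- livers. Casp8-/- Tnfr1-/- replicate 1 lay within the range of the other genotypes. With reads and effective library sizes pooled over the livers of a genotype, the ratio of reads per effective library was 20.3 against WT livers, with an exact 95% interval of 9.62 to 51.4 that covers counting error only. Fosb was not called in any comparison (log2 fold change against WT livers 4.73 ± 1.40, adjusted p = 0.0795), and without replicate 3 it had too few reads to be tested.

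Jun (ENSMUSG00000052684, chromosome 4, 95049034 to 95052222, minus strand) encodes c-JUN, the main partner of FOS and a target of JNK kinases. WT livers measured 6.68, 7.13 and 7.22 CPM, Tnfr1-/- livers 5.99 and 7.33, Casp8-/- Mlkl-/- livers 21.3, 8.86 and 6.57, and Casp8-/- Tnfr1-/- livers 15.4, 17.3 and 365. Replicates 1 and 2 of the last genotype were thus above every WT and Tnfr1-/- liver and below Casp8-/- Mlkl-/- replicate 1. Against WT livers the difference was, on the log2 scale, 4.24 ± 1.15 (adjusted p = 0.0618), and without replicate 3 it was 1.23 ± 0.40 (adjusted p = 0.0925). Neither was called.

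Junb (ENSMUSG00000052837, chromosome 8, 84974484 to 84978718, minus strand) encodes a JUN protein that also pairs with FOS and often tempers c-JUN. WT livers measured 10.4, 7.92 and 8.91 CPM, Tnfr1-/- livers 7.11 and 8.13, Casp8-/- Mlkl-/- livers 28.1, 11.01 and 7.87, and Casp8-/- Tnfr1-/- livers 18.4, 24.6 and 347. As with Jun, replicates 1 and 2 of the last genotype were above every WT and Tnfr1-/- liver and below Casp8-/- Mlkl-/- replicate 1. Against WT livers the log2 fold change was 3.83 ± 1.06 (adjusted p = 0.0641), and without replicate 3 it was 1.25 ± 0.44 (adjusted p = 0.118). When Casp8-/- Tnfr1-/- replicate 1 or 2 was left out in place of replicate 3, Jun and Junb were both called against WT livers.

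Atf3 (ENSMUSG00000026628, chromosome 1, 191170296 to 191218039, minus strand) encodes a stress-induced factor of the ATF family that pairs with JUN proteins and is known as a brake on inflammatory genes in myeloid cells. WT livers measured 2.50, 1.93 and 1.70 CPM, Tnfr1-/- livers 2.30 and 1.29, and Casp8-/- Mlkl-/- livers 5.11, 2.79 and 2.68. Casp8-/- Tnfr1-/- livers measured 12.3, 14.9 and 113 CPM, the lowest 2.40 times the highest of the 8 others. The log2 fold change was 4.51 ± 0.85 against WT livers (adjusted p = 0.0148), 4.69 ± 1.03 against Tnfr1-/- livers (0.0489) and 3.73 ± 0.82 against Casp8-/- Mlkl-/- livers (0.0575), called in the first 2. Against Tnfr1-/- livers 2.05% of all genes tested were called higher and 0.122% lower. Without replicate 3 Atf3 was called in all 3 comparisons, at 2.74 ± 0.33, 2.90 ± 0.39 and 1.95 ± 0.32.

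Egr1 (ENSMUSG00000038418, chromosome 18, 34859823 to 34864984, plus strand) encodes a zinc finger factor that is induced beside FOS by MAP kinases. WT livers measured 54.9, 42.6 and 75.7 CPM, Tnfr1-/- livers 29.4 and 32.5, Casp8-/- Mlkl-/- livers 86.0, 33.9 and 22.2, and Casp8-/- Tnfr1-/- livers 49.6, 50.0 and 291. Replicates 1 and 2 of the last genotype lay inside the WT range. The log2 fold change against WT livers was 1.17 ± 0.71 (adjusted p = 0.321), and it turned to -0.21 ± 0.47 (adjusted p = 0.845) without replicate 3.

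Egr2 (ENSMUSG00000037868, chromosome 10, 67535475 to 67542188, plus strand), a related factor known from hindbrain, Schwann cell, myeloid and lymphoid biology, was nearly silent in the 8 other livers, with 1 to 6 reads each. It had 62, 66 and 151 reads in Casp8-/- Tnfr1-/- livers, so it too passed the filter only through them. Levels were 0.038, 0.168 and 0.158 CPM in WT livers, 0.082 and 0.152 in Tnfr1-/- livers, 0.243, 0.087 and 0.191 in Casp8-/- Mlkl-/- livers, and 1.89, 2.27 and 8.60 in Casp8-/- Tnfr1-/- livers. The lowest Casp8-/- Tnfr1-/- liver was 7.78 times the highest other liver, and replicate 3 was 4.55 and 3.79 times the other 2. With reads and effective library sizes pooled over the livers of a genotype, the ratio of reads per effective library was 29.4 against WT livers (exact 95% interval 15.3 to 64.9), 31.6 against Tnfr1-/- livers (15.1 to 79.3) and 21.4 against Casp8-/- Mlkl-/- livers (12.5 to 39.7), intervals of counting error only.

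Because of that filter the p-values of Egr2 are no independent support for its direction, and they are given to describe the fit. The edgeR call was made against all 3 genotypes, also when no filter on low counts was used. Its log2 fold change was 5.08 ± 0.78 against WT livers (edgeR adjusted p = 0.00605), 5.16 ± 0.93 against Tnfr1-/- livers (0.0215) and 4.60 ± 0.75 against Casp8-/- Mlkl-/- livers (0.0165). In the last comparison 1.54% of all genes tested were called higher and 0.116% lower. Without replicate 3 the values were 4.07 ± 0.50, 4.15 ± 0.57 and 3.602 ± 0.47, and each was called. Against WT livers it was called with any one of the 11 livers left out. Against Tnfr1-/- livers it was lost when either Tnfr1-/- liver was left out, and against Casp8-/- Mlkl-/- livers when replicate 2 or 3 of that genotype was left out.

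Klf6 (ENSMUSG00000000078, chromosome 13, 5861482 to 5870394, plus strand) encodes a widely expressed KLF factor known in liver injury and stellate cell activation. WT livers measured 52.2, 46.7 and 42.6 CPM, Tnfr1-/- livers 49.9 and 47.7, Casp8-/- Mlkl-/- livers 59.5, 53.2 and 51.0, and Casp8-/- Tnfr1-/- livers 76.8, 70.1 and 218. All 3 of the last genotype lay above the 8 others, the lowest by 1.18 times. On the log2 scale Klf6 differed from WT livers by 1.37 ± 0.37 (adjusted p = 0.0626, not called). Without replicate 3 it was 0.65 ± 0.11 (adjusted p = 0.00633), a 1.57-fold rise that was called, as was the 1.51-fold rise against Tnfr1-/- livers (adjusted p = 0.0238), but not the value of 0.43 ± 0.11 against Casp8-/- Mlkl-/- livers (adjusted p = 0.0765).

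Klf2 (ENSMUSG00000055148, chromosome 8, 72319033 to 72321656, plus strand), the flow-induced factor of endothelium and of resting lymphocytes, had the smallest fold change of the 10 in all 3 comparisons. WT livers measured 5.61, 7.17 and 6.31 CPM, Tnfr1-/- livers 4.35 and 5.85, Casp8-/- Mlkl-/- livers 7.13, 7.21 and 5.66, and Casp8-/- Tnfr1-/- livers 5.95, 7.71 and 11.1. Against WT livers its log2 fold change was 0.37 ± 0.25 (adjusted p = 0.380) and 0.11 ± 0.20 (adjusted p = 0.803) without replicate 3.

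Ier3 (ENSMUSG00000003541, chromosome 17, 35821684 to 35822923, plus strand) encodes a small protein, not a transcription factor, that is induced by TNF and NF-kB and modulates cell survival. WT livers measured 17.9, 17.5 and 20.8 CPM, Tnfr1-/- livers 14.9 and 12.5, Casp8-/- Mlkl-/- livers 14.6, 13.8 and 16.8, and Casp8-/- Tnfr1-/- livers 12.1, 12.98 and 143. Replicates 1 and 2 of the last genotype were below all 3 WT livers, and replicate 3 was above every liver. Against WT livers the log2 fold change was accordingly 1.58 ± 0.79 (adjusted p = 0.245) with all livers and -0.57 ± 0.14 without replicate 3, when Ier3 was called lower (adjusted p = 0.0377). It was the only one of the 10 called lower in any comparison of Casp8-/- Tnfr1-/- livers with all livers or without replicate 3.

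**Figure D2:**
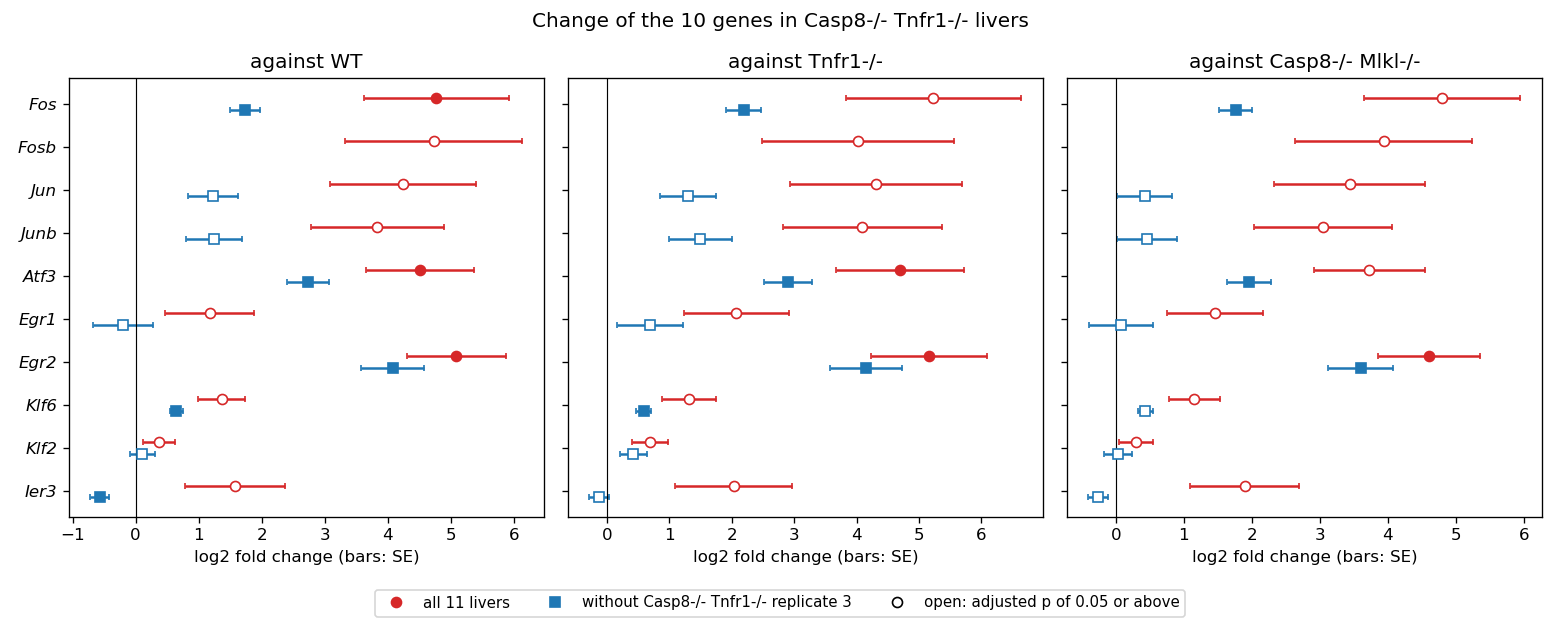
Log2 fold change of each gene in Casp8-/- Tnfr1-/- livers against each other genotype (horizontal axis, bars are SE), with all 11 livers (red circles) and without Casp8-/- Tnfr1-/- replicate 3 (blue squares); filled symbols have an edgeR adjusted p under 0.05. Egr2 stays at 3.602 or more without replicate 3 in all 3 panels, while Ier3 moves from right of zero to left of it.

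Leaving out replicate 3 thus lowered all 9 fold changes that could still be tested and raised the number called. Against WT livers 5 of 9 were then called (Fos, Atf3, Egr2 and Klf6 higher, Ier3 lower), where 7.28% of all genes tested were called higher and 2.55% lower. Against Tnfr1-/- livers it was 4 of 9, all higher (Fos, Atf3, Egr2 and Klf6), beside 4.46% higher and 0.728% lower of all genes tested. Against Casp8-/- Mlkl-/- livers it was 3 of 9, all higher (Fos, Atf3 and Egr2), beside 2.83% and 0.335%. Each of these counts includes Egr2, which passed the filter on low counts only through the Casp8-/- Tnfr1-/- livers. Its calls describe where it was detected. The median log2 fold change against WT livers was 4.04 over the 10 genes with all livers and 1.23 over 9 genes without replicate 3, where the median over all genes tested was -0.0015 and -0.0032. Egr2 is in both medians and Fosb in the first, and both genes passed the filter only through the Casp8-/- Tnfr1-/- livers. Leaving out any 1 of the 3 WT livers reduced the call to Egr2 alone, where 2.06%, 1.65% and 1.57% of all genes tested were called higher without replicates 1, 2 and 3. Leaving out Casp8-/- Tnfr1-/- replicate 1 raised it to 7 genes, where 7.11% of all genes tested were called higher.

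**Figure D3:**
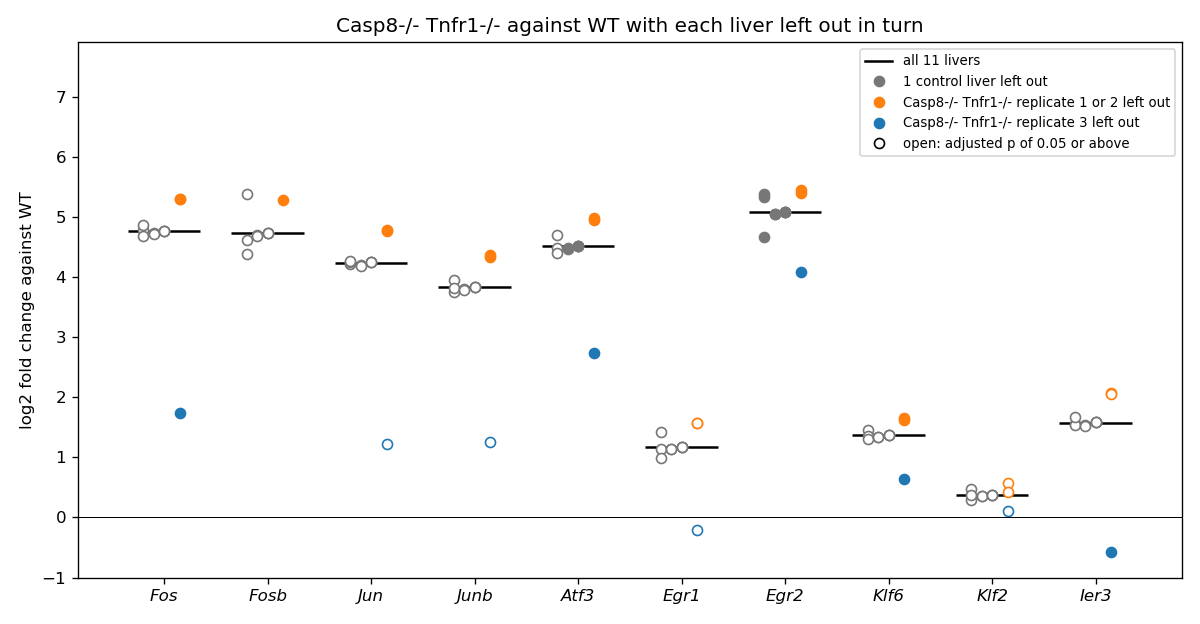
Log2 fold change against WT livers (vertical axis) of each gene with all 11 livers (black line) and with each liver left out in turn (points, filled where the edgeR adjusted p is under 0.05). Removing Casp8-/- Tnfr1-/- replicate 3 moves the points to between -0.57 and 4.07, and only Egr2 is filled in all 11 fits; Fosb has 9 points because 2 fits left too few reads to test it.

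Against WT livers none of the 10 genes was called in Tnfr1-/- or Casp8-/- Mlkl-/- livers by edgeR or limma-voom. DESeq2 called none either, but it gave Fos, Fosb, Jun, Junb and Ier3 no adjusted p, so it could not call those. None of the 10 had an unadjusted edgeR p under 0.05. Tnfr1-/- and Casp8-/- Mlkl-/- livers were not compared with each other. Against WT livers 0% of all genes tested were called in Tnfr1-/- livers (118 genes higher and 68 lower at an unadjusted p under 0.05, and 0 called by DESeq2 or limma-voom) and 0.0058% in Casp8-/- Mlkl-/- livers, 1 gene. The largest of these differences from WT livers was that of Egr1, at -0.90 ± 0.80 on the log2 scale in Tnfr1-/- livers, where both livers were below all 3 WT livers. In Casp8-/- Mlkl-/- livers Jun, Junb and Atf3 had log2 fold changes of 0.80 ± 1.04, 0.78 ± 0.96 and 0.78 ± 0.78, with replicate 1 the highest of the 3 livers in each. That liver was the second highest of all 11 in 3 of the 10 genes (Jun, Junb and Egr1). It also had the highest summed hepatocyte markers, 244294 CPM against 53357 to 121009 in the others, and the highest macrophage markers, 1715 CPM against 402 to 779. Their part in its levels of Jun, Junb and Egr1 was not tested. With that liver left out, Jun, Junb and Fosb joined the genes in which each Casp8-/- Tnfr1-/- liver was above all others, which made 7 of 10. The share of all genes tested that did so was then 13.4%. The 7 include Egr2 and Fosb, which passed the filter on low counts only through the Casp8-/- Tnfr1-/- livers.

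Of 30 upstream genes, which encode MAP kinases, their kinases and the SRF and CREB factors they reach, 4 were called higher and none lower against WT livers. These were Map3k8 (log2 fold change 2.44 ± 0.47, adjusted p = 0.0154), which encodes the kinase TPL2 that carries TNF and Toll-like receptor signals to ERK, Mapk13 (2.99 ± 0.66, 0.0291), encoding p38 delta, Map2k1 (0.85 ± 0.19, 0.0324), encoding the ERK kinase MEK1, and Mrtfb (0.71 ± 0.17, 0.0412), encoding an actin-sensing SRF partner. The median of the 30 was 0.05, close to that of all genes. Without replicate 3 those 4 were again called, among 7 called higher and 1 lower. Against the other 2 genotypes edgeR called none of the 30, although 10 were higher and 2 lower, and 8 higher, at an unadjusted p under 0.05, and DESeq2 called 5 and 3 of them and limma-voom 1 and 0.

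Of 15 other AP-1 subunits tested, Batf, Batf2 and Jdp2 were called higher against WT livers and none lower. BATF proteins pair with JUN in lymphoid and myeloid cells, and JDP2 dimerizes with JUN as a repressor. Batf measured 7.41, 7.99 and 3.70 CPM in Casp8-/- Tnfr1-/- livers and no more than 3.61 in the others, so unlike the 10 genes it was lowest in replicate 3 among the 3. Batf2 followed that order too, at 2.93, 2.17 and 1.82 CPM against no more than 0.851. Jdp2 measured 9.82, 10.6 and 20.7 CPM against no more than 9.36. Of 11 other EGR and KLF genes and EGR corepressors tested, Egr3 alone was called against WT livers, at 0.641, 0.654 and 1.03 CPM in Casp8-/- Tnfr1-/- livers and 0 to 0.243 CPM in the others. No fold is given for Egr3 because WT livers held almost no reads. Egr3 passed the filter on low counts only through the Casp8-/- Tnfr1-/- livers, so its call describes where it was detected. Against Tnfr1-/- livers Batf alone of both lists was called by edgeR (7 and 3 genes at an unadjusted p under 0.05, 3 and 1 by DESeq2, 2 and 0 by limma-voom), and against Casp8-/- Mlkl-/- livers none was (4 and 2 unadjusted, 2 and 1 by DESeq2, 0 and 1 by limma-voom).

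In 39 other tested immediate early genes the fold change against WT livers was above zero throughout, with a median of 1.56 on the log2 scale. Of these, 5 were called higher, Socs3, Nr4a1, Cebpd and Dusp4 among them. Nr4a1, an orphan nuclear receptor gene induced beside Fos, measured 6.50, 7.06 and 62.8 CPM against 1.74 to 3.20 in the 8 others (log2 fold change 3.66 ± 0.83, adjusted p = 0.0316). Socs3, the feedback inhibitor of IL-6 and STAT3 signaling, measured 41.9, 46.8 and 137 CPM against 19.8 to 26.3 (1.82 ± 0.39, 0.0266). Dusp4, a MAP kinase phosphatase, measured 3.17, 5.198 and 23.5 CPM against 1.58 to 2.24 (2.62 ± 0.64, 0.0426). Cebpd, a myeloid and acute phase factor, measured 6.50, 9.26 and 31.6 CPM, and Casp8-/- Tnfr1-/- replicate 1 overlapped the 8 others, which reached 6.57. Like the 10 genes, 36 of 40 listed genes were highest in replicate 3. Without it 8 were called higher and 1 lower and the median was 0.59, with 33 of 39 positive. Against Tnfr1-/- and Casp8-/- Mlkl-/- livers edgeR called none, while 23 and 21 had an unadjusted p under 0.05, DESeq2 called 10 and 6, and limma-voom none.

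Of 12 tested genes long known as targets of AP-1, 9 were called higher against WT livers and none lower, with a median log2 fold change of 2.80. Of all genes tested, 5.1% were called higher. This list, like the others, was chosen with earlier results of these data known, so its count is no independent support for AP-1 activity. Mmp13, encoding a collagenase, measured 14.4, 11.5 and 17.6 CPM against 0.076 to 0.284 in the 8 others (6.72 ± 0.45, adjusted p = 6.4e-05). Mmp13 passed the filter on low counts only through the Casp8-/- Tnfr1-/- livers, so its call, among the 9, describes where it was detected. Ccl2, encoding a monocyte chemokine, measured 21.4, 23.8 and 64.5 CPM against 0.304 to 1.42 (6.28 ± 0.51, 0.000164). Timp1, encoding a protease inhibitor, measured 14.9, 19.5 and 52.5 CPM against 1.22 to 2.09 (3.99 ± 0.46, 0.00124). Cd44, encoding a hyaluronan receptor, measured 154, 155 and 156 CPM against 82.9 to 110 (0.89 ± 0.10, 0.00118). The same 9 were called without replicate 3, when the median was 2.01 and 7.28% of all genes tested were called higher. With all livers, 6 were called against each of the other 2 genotypes, where 2.05% and 1.54% of all genes tested were called higher. In Mmp13 and Cd44 replicate 3 was near the other 2, but 12 of the 14 listed targets were highest in replicate 3. The list summed to 2227 CPM there and to 1068 and 1160 CPM in replicates 1 and 2. In the 10 genes replicate 3 exceeded replicate 1 by 1.86 times (Klf2) to 23.7 times (Jun). These genes are also targets of other factors, and AP-1 binding was not measured. Of 6 endothelial targets of KLF2, Selp, the gene of P-selectin, was called higher against all 3 genotypes (3.54 ± 0.49 against WT livers, 0.0033). The 6 were not sorted into genes that KLF2 raises or lowers, and KLF2 activity was not measured.

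Genes that respond to low oxygen, and the inducible HSP70 genes, were high beside the 10 genes in replicate 3. The 12 hypoxia genes summed to 6537 CPM in that liver, to 1063 and 1120 CPM in the other 2 Casp8-/- Tnfr1-/- livers and to 1221 to 1672 CPM in the 8 others, and all 12 were highest in replicate 3. Second in that sum was Casp8-/- Mlkl-/- replicate 1, at 1672 CPM. The mean log2 CPM of the 12 genes, which weights them equally, was 7.902 in replicate 3, 4.57 and 4.47 in Casp8-/- Tnfr1-/- replicates 1 and 2, 5.35 in Casp8-/- Mlkl-/- replicate 1 and 4.15 to 4.30 in the other 7 livers. Replicates 1 and 2 were thus below all 8 other livers in the sum and above 7 of them in the mean. None of the 12 was called against WT livers by edgeR (7 at an unadjusted p under 0.05, 1 by DESeq2 and 0 by limma-voom), and without replicate 3 edgeR called 2 higher and 1 lower. The heat shock genes summed to 3403 CPM in replicate 3 against 2620 to 3463 CPM elsewhere, their mean log2 CPM was 5.94 against 4.88 to 5.22, and 5 of 14 were highest there. Among them Hspa1a and Hspa1b, the inducible HSP70 genes, singled out after their values were seen, measured 119 and 166 CPM in replicate 3 and no more than 1.30 and 1.20 CPM in any other liver. No heat shock gene was called against WT livers by edgeR (4 higher and 1 lower at an unadjusted p under 0.05, 1 each way by DESeq2 and 0 by limma-voom). The part of hypoxia or handling in the levels of the 10 genes was not tested.

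Markers of other cell types differed as well. Striated muscle markers, all 12 highest in replicate 3, summed to 1934 CPM there and to 21.4 to 48.2 CPM in the other 10 livers, and Acta1, named after its values were seen, was at 534 CPM against at most 6.07. Neutrophil markers summed to 5358, 6620 and 15406 CPM in Casp8-/- Tnfr1-/- livers, to 3508 CPM in Casp8-/- Mlkl-/- replicate 1 and to 1135 to 1648 CPM in the other 7. Of these 12 markers 6 were called higher against WT livers, S100a8, S100a9, Cxcr2 and Ltf among them. Macrophage markers summed to 545, 509 and 402 CPM in Casp8-/- Tnfr1-/- livers, below the 565 to 1715 CPM of the 8 others. Of these 12, 1 was called higher and 2 lower against WT livers, and without replicate 3 it was 1 and 0. Endothelial markers summed to 517, 484 and 905 CPM against 471 to 707 CPM, and 1 of 10, Pecam1, was called higher. Hepatocyte markers were present in every liver at 53357 CPM or more and 9 erythroid markers at 11031 CPM or more. In replicate 3 these sums were 121009 and 19461 CPM, the erythroid sum being the highest of the 11 livers. The erythroid mean log2 CPM was 9.50 there, within the 9.27 to 9.98 of the others. Neither list had a gene called against WT livers by edgeR (2 and 4 at an unadjusted p under 0.05, 0 and 4 by DESeq2, 0 and 0 by limma-voom). Hemoglobin genes summed to 171803 CPM in replicate 3 and to 34659 to 61046 CPM in the other 10 livers. The neutrophil sum, like the levels of the 10 genes, was highest in replicate 3, and the part of these cell types in those levels was not tested.

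**Figure D4:**
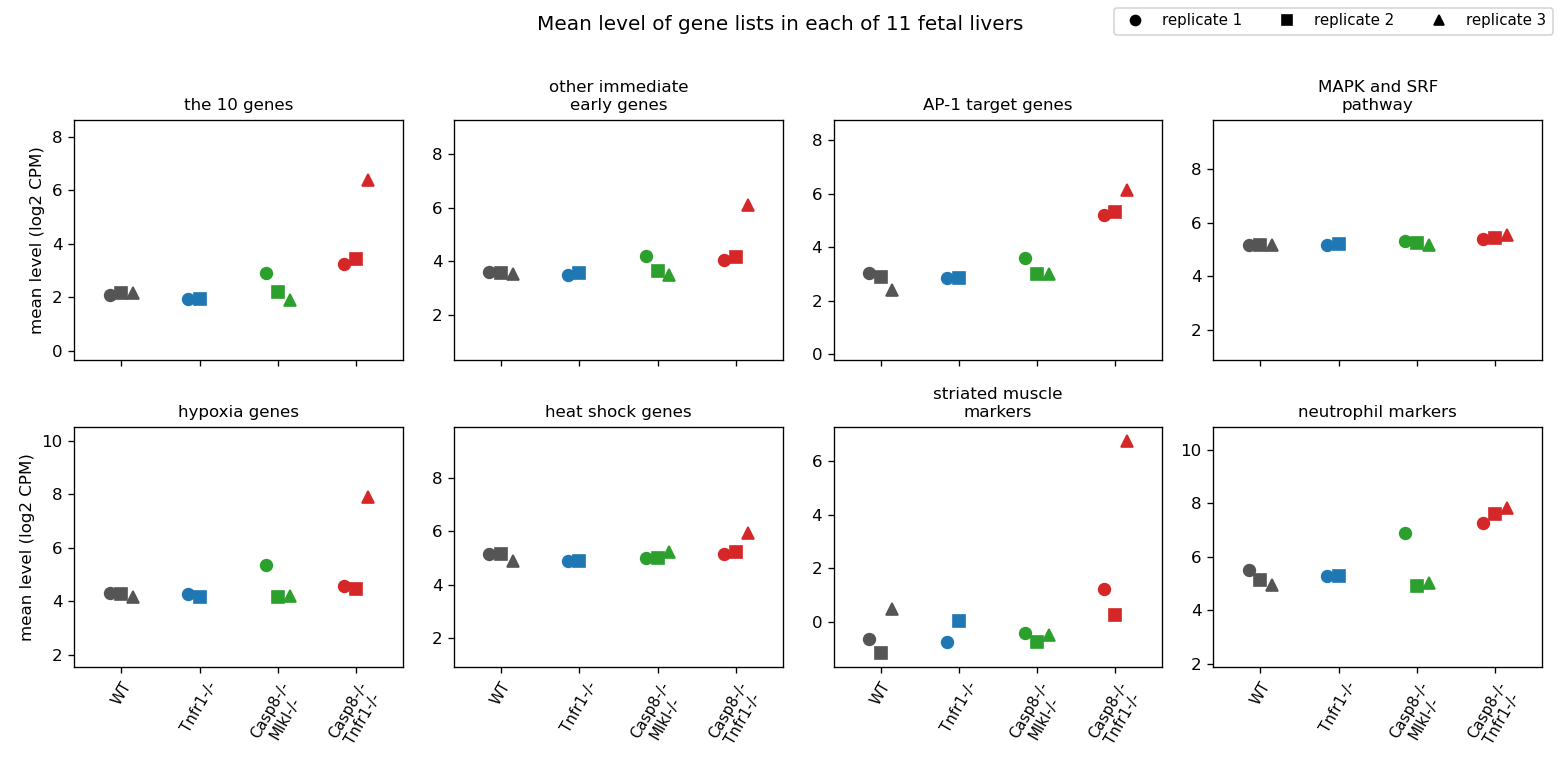
Mean log2 CPM (vertical axis, the same span of 9 units in each panel) of the genes of 8 lists in each of the 11 livers by genotype, with 1 point per liver and a shape for each replicate number. The 10 genes, other immediate early genes, hypoxia genes and striated muscle markers set Casp8-/- Tnfr1-/- replicate 3 apart. AP-1 target genes, neutrophil markers and the 10 genes are higher in all 3 Casp8-/- Tnfr1-/- livers than in the 8 others. So are the MAPK and SRF pathway genes, but narrowly, at 5.38 or more against 5.31 or less.

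The genes whose pattern over the 11 livers was most like that of a called member were found as those with the smallest root mean square difference of centred log2 CPM. For Fos, which itself varied by 1.87 around its mean, they were Cfap69 (difference 0.31) and Stc1 (0.37). For Atf3, which varied by 1.79, they were Rhov (0.33) and Slc41a2 (0.36). For Egr2, which varied by 1.92, they were Clec4d (0.36) and Rgs1 (0.41). These likenesses are over 11 livers of which replicate 3 sets most of the spread.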

How the data were processed

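RNA of 11 fetal livers at E15.5 was sequenced, per the labels as single-end 50-base reads. The authors aligned them to GRCm38 with GSNAP (named in the submitters' processing notes) and deposited, for each liver, raw counts of reads per Ensembl gene with a width in bases and RPKM values. The deposited RPKM values were used only to check the counts against the read totals. The counting tool, annotation release and use of strand are not given in the sources used here, and the paper and the labels name different library kits. Symbols and positions came from GENCODE M21 for GRCm38, which held 52403 of the 52636 genes.

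Genes were kept by filterByExpr (minimum count 10), normalized by TMM and fitted by edgeR 4.0.16 (glmQLFit and glmQLFTest, 4 genotypes in 1 fit, no covariate). Adjusted p-values are Benjamini-Hochberg over 17243 genes, with a threshold of 0.05. In the alternatives, a gene given no adjusted p was counted as not called. SE is the log2 fold change divided by the root of F, and log2 CPM used a prior count of 2. Ratios of few reads have exact binomial intervals, and all such limits cover counting error only. No pair of livers agreed within sampling noise (chi-square per degree of freedom at least 6.45). The fit was tested on simulated data. Alternatives were DESeq2 1.42.0, limma-voom 3.58.1 with and without quality weights, other scalings, filters and sample sets, a replicate block and each liver left out, and, added after seeing the data, both livers with a TMM factor under 1 left out. The members and lists were chosen with earlier results of these data known. Genes of the other lists were named where called, up to 4 a direction by smallest p against WT livers, and for each called member the 2 genes most like it. Lists were described by counts and medians without a set test.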

Additional observations from a re-analysis of the deposited data

How the results depend on the processing

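The number of the 10 genes called against WT livers, 3 with all livers, was 1 with limma-voom and 1 with only the 2 genotypes in the fit (Egr2 in both, so Fos and Atf3 were lost), 7 without a filter on low counts and 8 with quality weights, which nearly removed Casp8-/- Tnfr1-/- replicate 3 (weight 0.0383) and Casp8-/- Mlkl-/- replicate 1 (weight 0.114). DESeq2 also called 3, but they were Atf3, Egr2 and Klf6. Fos was not among them, but this is no evidence against it. Between the controls, DESeq2 gave Fos, Fosb, Jun, Junb and Ier3 no adjusted p. It was 7 with both of those livers left out and 1 to 7 with 1 liver left out, of which the lowest came without any 1 WT liver. The share of all genes tested called higher moved too, from 5.1% to 4.07% with limma-voom, 2.8% with only the 2 genotypes, 3.58% without a filter, 10.3% with DESeq2, 17% with quality weights and 17.8% with both livers left out. Against Tnfr1-/- livers, the 2 became 1 with DESeq2's size factors, with robust estimation and with the replicate block, 0 with limma-voom and with only the 2 genotypes, 3 with DESeq2 (Atf3, Egr2 and Klf6) and without a filter (Fos, Atf3 and Egr2), 7 with quality weights and with both livers left out (14.6% and 13.9% of all genes called higher), and 0 to 4 with 1 left out. Against Casp8-/- Mlkl-/- livers, the 1 became 2 with DESeq2, 3 without a filter, 0 with only the 2 genotypes, 8 with quality weights, 7 with both livers left out (11% and 12% of all genes called higher) and 0 to 3 with 1 left out. Between controls, Egr1 alone was called, against WT in Tnfr1-/- livers with only the 2 genotypes (1 gene) and in Casp8-/- Mlkl-/- livers with quality weights or with both livers left out (1 gene each), and 0 genes with 1 liver left out. With 1 liver left out, 1.57% to 7.61% of all genes tested were called higher against WT livers. The highest such shares were 4.46% against Tnfr1-/- livers and 3.03% against Casp8-/- Mlkl-/- livers. With DESeq2 6.42% and 4.55% of all genes tested were called higher against these 2 genotypes, and without a filter 1.5% and 1.32%. The number of the 10 genes in which all Casp8-/- Tnfr1-/- livers were above the others was 4 to 7 with 1 liver left out, 7 without Casp8-/- Mlkl-/- replicate 1. The share of all genes tested that did so was 7.26% to 13.4%, the highest again without that liver. The cause was not tested. Egr2, in each of these counts of the 10, and Fosb, among the 7, passed the filter only through the Casp8-/- Tnfr1-/- livers.

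The direction of Egr1 against WT livers turned with quality weights (-0.071) and with both livers left out (-0.20), and its range with 1 liver left out was -0.21 to 1.57. That of Ier3 turned under the same settings, to -0.53 and -0.56 against WT livers, -0.12 and -0.11 against Tnfr1-/- livers and -0.30 and -0.27 against Casp8-/- Mlkl-/- livers. With 1 liver left out its ranges were -0.57 to 2.06, -0.12 to 2.51 and -0.26 to 2.39, and each negative end came without Casp8-/- Tnfr1-/- replicate 3. Of 649 recomputed fold changes of the 10 genes over 22 alternatives, 544 kept direction and side of the threshold, 35 lost the call, 58 gained it and 12 turned.

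Whether equal replicate numbers pair the livers could not be settled. Of 15 pairs of the same number, 5 had correlated deviations above 0.1, with a range of -0.30 to 0.27. Pairs of different numbers were not compared, and each deviation is from a mean of only 2 or 3 livers. With the replicate block Fos lost its call against WT livers (log2 fold change 3.65, adjusted p = 0.128) and Atf3 its call against Tnfr1-/- livers (3.998, adjusted p = 0.158). The block changed no other call of the 10 genes. Over all genes tested, the number called higher against WT livers ran from 270 to 3017 between alternatives, beside 879. Genes under about 10 reads per liver, Fosb and Egr2 in the 8 other livers, carry the widest counting error, and groups of 2 or 3 livers limit all comparisons.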
